A study of Mus musculus with 8 samples.

Results

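The genes described here are named for proteins of the mitochondrial ribosome, and were measured in the arches and heart of Pygo2 mutant and wild-type mouse embryos. They are the 76 gene symbols that begin with Mrpl or Mrps and a number, of 23420 symbols in the count table. Among them Mrps36 is now placed outside the ribosome, and 7 subunits that lack such a name are described below. All 76 passed the filter on low counts, which kept 14861 genes, so every member was tested. The rule used names only and no measured value.

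The data come from 8 RNA libraries, each made from the pharyngeal (branchial) arches and the looping heart of a single embryo at 10.5 days post coitum. There were 4 Pygo2 mutant embryos and 4 Pygo2 wild-type littermates. The labels name no allele, no strain and no part of the gene that was altered. Pygo2 encodes a nuclear protein that joins Bcl9 and β-catenin in Wnt-dependent transcription. Library totals ran from 2.33e+07 to 2.78e+07 counts in mutants and from 2.08e+07 to 2.82e+07 in wild-types. The targeted gene was at 19.3 ± 1.99 CPM (counts scaled to the size of the library) in mutants and 51.0 ± 5.20 CPM in wild-types (SD, n = 4 each). On the log2 scale it fell by 1.4 (SE 0.12), with an adjusted p of 0.00805 in edgeR's quasi-likelihood test. That p was 0.0549 to 0.0973 in the fits without mutant 2, mutant 3, mutant 4, wild-type 1 or wild-type 2. Wild-type 4 stood apart in its ribosomal RNA, with 4.83% of its counts on the ribosomal RNA precursor Rn45s, against 0.491% to 1.29% in the other 7 libraries.

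Mitochondria keep a ribosome of their own, which descends from that of a bacterial ancestor and translates the few messages of the mitochondrial genome. Those messages all encode parts of the respiratory chain, so heart muscle depends strongly on this ribosome. Its proteins are encoded in the nucleus, made in the cytosol and imported. The large subunit joins amino acids into the chain, and the small subunit reads the message. Some of the proteins have bacterial counterparts and others were added in the mitochondrial lineage. In human patients, variants in MRPL3, MRPL44, MRPS14 and MRPS22 have been linked to cardiomyopathy of infancy.

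The promoters of these genes held short motifs that are known from genes of mitochondrial function. RefSeq promoter sequences (GRCm38.p6, 250 bases before to 50 after the gene start) were matched for 67 of the 76 members. The ETS motif CCGGAAG, of the kind bound by GABPA, was found on either strand in 24 of 67 members (35.8%), against 18.2% of the 10756 tested genes with a promoter and 9.93% of all 27025 genes with one. The NRF1 motif GCGCATGCG was found in 7 members (10.4%), against 3.90% of tested genes and 1.95% of all. The YY1 motif AAGATGGCG was found in 8 members (11.9%), against 3.18% of tested genes and 1.64% of all. The TATA motif TATAAA was found in 5 members (7.46%), against 8.92% of tested genes and 15.7% of all. CTTTGAT, a motif of the TCF/LEF factors through which β-catenin acts, was found in 0 of 67 members, against 3.07% of tested genes. At a share that low, few holders would be expected among 67 genes. A gene with several promoter entries counted once if any of them held the motif. More than 1 entry was present for 3 of the 67 members, against 20.3% of tested genes, which can raise the shares of tested genes. Both strands were searched. The NRF1 motif nearly equals its own reverse complement, so that a full palindrome counts on both strands at overlapping positions. These are matches of letters and do not show binding. Positions of motifs count from the RefSeq start, which is not always the start of the gene span that GENCODE M21 gives. The 2 starts lay within 100 bases of each other in 48 of the 67 members and farther apart in 19, and of the members printed here the RefSeq start of Mrps24 lay 7979 bases inside the GENCODE span.

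The sequences below show where the 3 motifs that were more frequent in members lie, in up to 4 members per motif taken by the order of their p-values. Each is a stretch of 30 bases written 5′ to 3′ on the strand of the gene, with the motif (or its reverse complement) in capitals. The first group holds the ETS motif, the second the NRF1 motif and the third the YY1 motif.
Mrpl52 (chr14:54426851-54426880, plus strand): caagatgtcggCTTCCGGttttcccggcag
Mrps21 (chr3:95871478-95871507, minus strand): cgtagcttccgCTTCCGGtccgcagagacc
Mrps18a (chr17:46110967-46110996, plus strand): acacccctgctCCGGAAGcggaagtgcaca
Mrpl18 (chr17:12916312-12916341, minus strand): actgaaaacgCCGGAAGtagggggctgcgg
Mrpl9 (chr3:94443298-94443327, plus strand): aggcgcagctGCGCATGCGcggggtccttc
Mrpl39 (chr16:84735350-84735379, minus strand): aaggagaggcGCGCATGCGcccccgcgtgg
Mrpl32 (chr13:14613105-14613134, minus strand): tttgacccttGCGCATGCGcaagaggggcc
Mrpl22 (chr11:58171621-58171650, plus strand): gcctcggactGCGCATGCGtatagtcagcc
Mrps11 (chr7:78783013-78783042, plus strand): ctacgggcgcCGCCATCTTtctgtcttccc
Mrps24 (chr11:5707652-5707681, minus strand): cgggtcgcgccggcccAAGATGGCGtggtc
Mrps18a (chr17:46111005-46111034, plus strand): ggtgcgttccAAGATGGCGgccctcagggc
Mrpl42 (chr10:95501903-95501932, minus strand): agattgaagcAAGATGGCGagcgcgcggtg

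The motifs differed in where they lay. All 11 NRF1 matches, with palindromes counted on both strands, began before the RefSeq start, at positions -224 to -11. In Mrpl39, Mrpl32 and Mrpl17 that start lay 498, 128 and 12 bases inside the GENCODE span. The NRF1 matches of these members therefore lay within the span. Of 8 YY1 matches 6 began after the RefSeq start, with a median position of 19.5. The 28 ETS matches were spread over positions -240 to 44. All 5 TATA matches began before the RefSeq start, at positions -190 to -68. The 34 members with an ETS, NRF1 or YY1 match differed between mutants and wild-types by a median of -0.10 on the log2 scale, and the 33 with none of them by -0.07. Mrpl9, the member with the smallest p below, is shown for the 150 bases that end just before its RefSeq start (chr3:94443186-94443335, plus strand), which lies 18 bases inside the GENCODE span, with the overlapping NRF1 matches in capitals.
Mrpl9: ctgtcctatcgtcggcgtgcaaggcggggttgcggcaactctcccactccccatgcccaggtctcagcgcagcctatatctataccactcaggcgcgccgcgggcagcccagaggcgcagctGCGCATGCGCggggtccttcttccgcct

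Many members also share their start region with another gene. A protein-coding neighbour that runs the other way, with its start within 1000 bases upstream or overlapping by up to 500 bases, was annotated for 25 of 76 members (32.9%), against 13.2% of 14044 tested protein-coding genes. Mrps12 faces Sars2, the mitochondrial seryl-tRNA synthetase, at 172 bases. Mrpl36 and the respiratory chain gene Ndufs6 overlap by 29 bases at their starts. Mrpl46 and Mrps11, both members, overlap at their starts. Of the 25 neighbours 11 were lower and 14 higher in mutants, at a median of 0.01 on the log2 scale. The 11 lower ones include Mrpl46 (-0.09) and Mrps11 (-0.20), which are members and each other's neighbour. The 76 members lie on 17 chromosomes, with the most, 10, on chromosome 11. Exon bases are shared with another annotated gene in 32 members, on the same strand in 8 of them, and whether the authors counted by strand is not stated, which makes the counts of these 32 less certain.

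All members were expressed at a moderate level in every library. Counts per gene and library ran from 219 to 2392, with a median of 963.5. Together the 76 genes took 0.289% to 0.336% of the counts of a mutant library and 0.309% to 0.335% of those of a wild-type library. Levels of different genes are compared only per length, as CPM per kilobase of annotated exon, averaged over the 8 libraries. On that scale the median member was at 17.1, against 387 for 80 cytosolic ribosomal protein genes and 50.8 for 78 nuclear genes of the respiratory chain.

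Members differed widely in level per length although most of their products are built into the ribosome in equal numbers. The highest level per kilobase was 23.9 times the lowest. The highest 5 were Mrps21 (60.3 CPM per kilobase), a small-subunit protein with a bacterial counterpart, Mrpl54 (57.6), Mrpl34 (52.4), Mrpl18 (52.0) and Mrpl28 (47.5). The first 4 of these overlap in their ranges over the libraries, and their order within each library was not compared. The lowest 5 were Mrps10 (2.53), Mrps35 (3.55), Mrpl33 (4.05), Mrpl48 (4.35) and Mrps26 (5.0). The median was 19.3 CPM per kilobase for the 49 genes of the large subunit and 12.1 for the 26 of the small subunit. It was 16.0 for the 45 members with a bacterial counterpart and 18.3 for the 27 without. The annotated exon length includes rare isoforms. With the longest transcript as the length the highest over the lowest level was 18.3 and 4 of the same 5 genes led. The lowest 5 were then Mrps10 (4.99), Mrps26 (5.09), Mrpl17 (6.02), Mrps35 (6.66) and Mrps25 (7.1). On that length Mrpl48 was at 8.28 and Mrpl33 at 10.8 CPM per kilobase, so their places among the lowest depend on the length used.

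**Figure D1:**
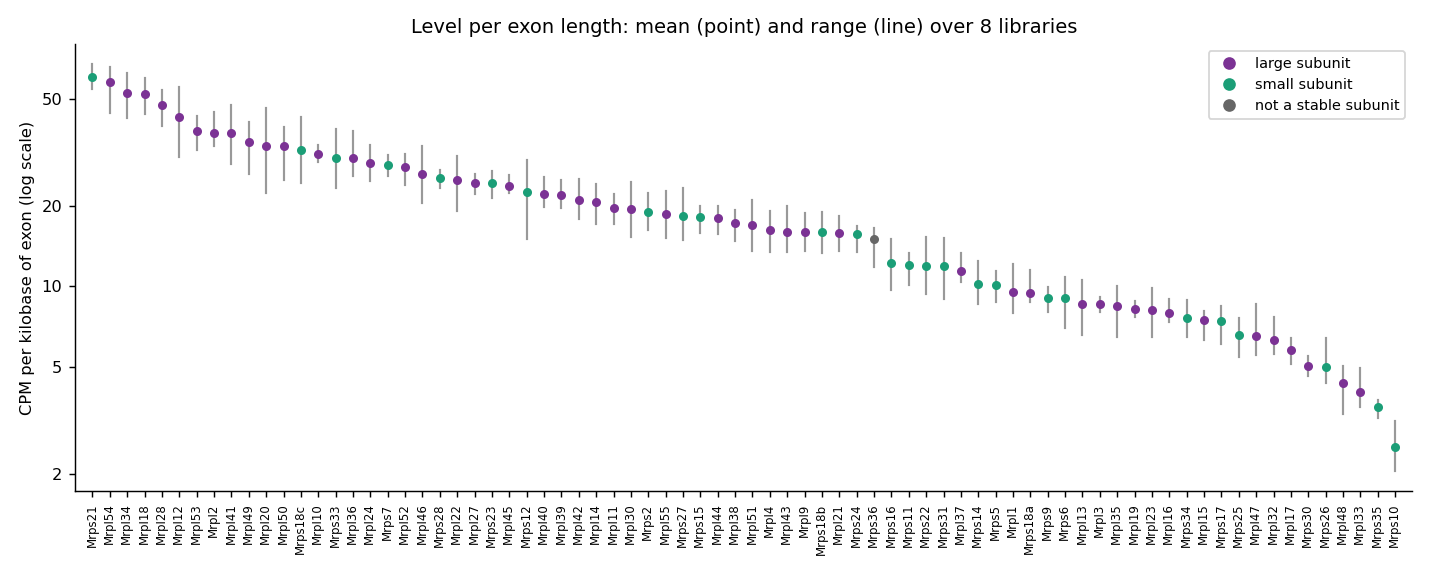
Level of each of the 76 genes as CPM per kilobase of annotated exon (log axis), ordered from highest to lowest; points are means and lines the range over the 8 libraries, coloured by subunit. Mrps21 leads at 60.3 and Mrps10 is lowest at 2.53, and the places just after Mrps21 are all held by genes of the large subunit.

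Between mutants and wild-types 0 of the 76 members passed the test. The background was 1 gene of 14861 (0.00673%), Pygo2, at an adjusted p under 0.05. The adjusted p was 0.99997 for every member (edgeR quasi-likelihood test). At an unadjusted p under 0.05 there were 0 members, against 193 genes of all tested (1.30%), of which 121 were lower (0.814% of all tested). Embryos of the same number, the only pairs compared, varied together over all genes. Over the members, though, pair 2 ran opposite ways (correlations across members of 0.559, -0.422, 0.46 and 0.243 in pairs 1 to 4). With that number as a block 3 members reached an unadjusted p under 0.05, against 745 of all genes (5.01%; 2.52% lower), and 0 passed after adjustment. They were Mrpl41 (edgeR unadjusted p = 0.00934), Mrpl9 (edgeR unadjusted p = 0.029) and Mrpl20 (edgeR unadjusted p = 0.0453). Each was lower in mutants, at an edgeR adjusted p of 0.968.

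The small differences mostly had one sign. The log2 fold change was below 0 in 66 of 76 members (86.8%), against 50% of all genes tested. The median log2 fold change was -0.08 for the members and -1.31e-05 for all genes tested, and 73 members lay between -0.2 and 0.2. The 95% interval spanned 0 in all 76, and reached a median of 0.275 to either side of the value. Genes of one ribosome that vary together within an embryo are not independent, so the count of 66 carries no test. Deviations from group means had a median correlation of 0.309 between members, and it was positive in 67.6% of the pairs of genes. The median was 0.847 for the cytosolic ribosomal protein genes and 0.271 for the nuclear genes of the respiratory chain. Those of the members were thus shared only in part. The number of lower members was 50 with a median log2 fold change of -0.03 without mutant 1, and 72 with a median of -0.13 without mutant 3. Over the fits that left out 1 library each it ran from 50 to 72. In the authors' deposited table for mutants against wild-types 65 of 76 members were lower and 0 had a false discovery rate under 0.05.

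**Figure D2:**
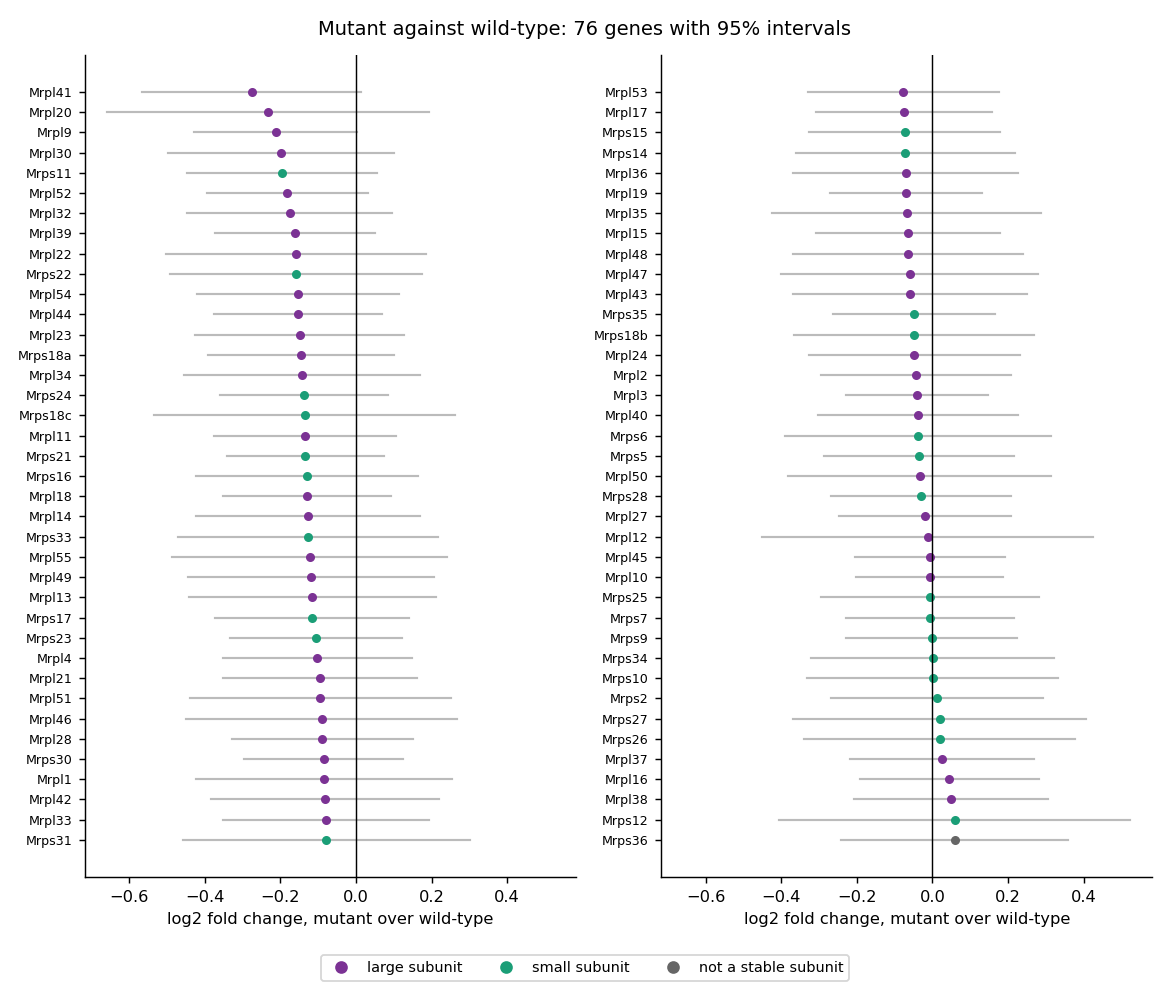
Log2 fold change of mutant over wild-type for each of the 76 genes with its 95% interval, ordered from lowest to highest and coloured by subunit. Points run from -0.28 for Mrpl41 to 0.06 for Mrps36, and every interval spans 0.

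The level of the members as a whole differed more between embryos of a group than between groups. Their mean log2 CPM was 5.11, 5.17, 5.36 and 5.23 in mutants 1 to 4, against 5.25, 5.23, 5.35 and 5.38 in wild-types 1 to 4. The groups overlapped, with mutants 1 and 2 lowest and mutant 3 among the 3 highest. The group means were 5.22 ± 0.107 in mutants and 5.30 ± 0.0734 in wild-types (SD, n = 4 each). Their difference was -0.0813, or -0.0433 with raw library totals, -0.039 without mutant 1 and -0.129 without mutant 3. Mutant 3 held the highest mutant value in 55 of 76 members and mutant 1 the lowest in 39. Among wild-types the highest value was in wild-type 3 for 33 members and in wild-type 4 for 30. Within same-numbered pairs 59, 46, 40 and 63 members were lower in the mutant of pairs 1, 2, 3 and 4, and the list mean was lower in 3 of the 4 pairs. In 15 members (19.7%) the mutant was lower in all 4 pairs, against 5.88% of all genes tested.

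**Figure D3:**
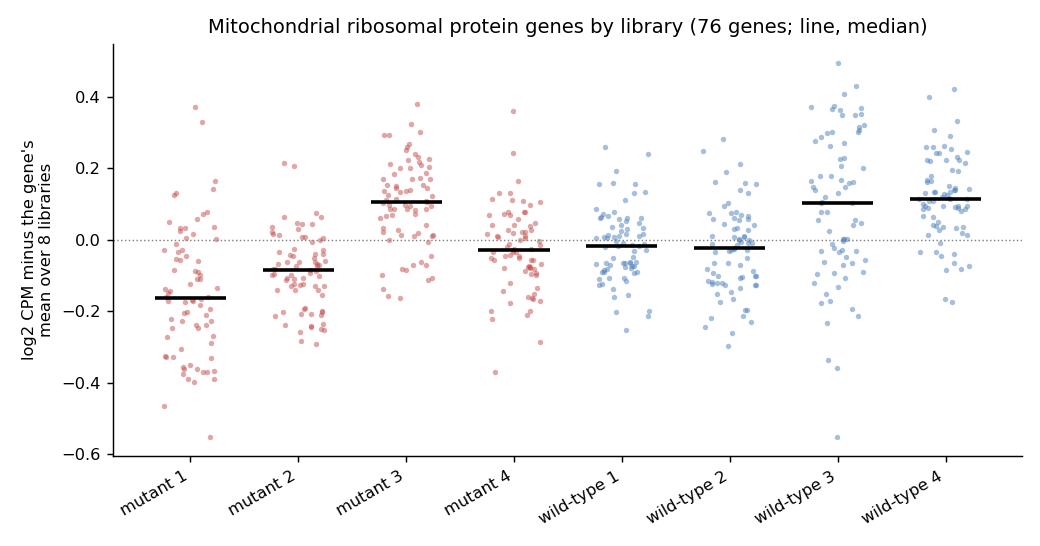
Deviation of each gene's log2 CPM from its own mean over the 8 libraries, 1 point per gene and library, with the median of the 76 genes as a line; mutants are red and wild-types blue. The medians run from -0.16 in mutant 1 to 0.11 in mutant 3 among mutants and from -0.02 to 0.11 among wild-types.

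Other gene lists varied between the same libraries. A list of 10 proliferation genes, Mki67 and Top2a among them, had mean log2 CPM of 8.14, 8.19, 8.52 and 8.51 in mutants 1 to 4, against 8.23, 8.27, 8.47 and 8.55 in wild-types 1 to 4. It was lowest in mutants 1 and 2, as were the members, and highest in mutants 3 and 4 and wild-types 3 and 4, of which mutant 4 was not high for the members. Markers of heart muscle ran the other way. The summed level of 9 cardiomyocyte genes ran from 10970 to 23210 CPM in mutants and from 7408 to 17390 CPM in wild-types, with the highest in mutant 1 and the lowest in wild-type 4. The summed level of 7 tested neural genes of 8 listed ran from 29.3 to 637 CPM in mutants and from 53.7 to 544 CPM in wild-types, with mutant 1 lowest and mutant 3 highest. The part of these marker levels in the members' levels was not tested. In bulk tissue, fewer cells of a type and less RNA per cell cannot be told apart.

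Markers of the dissected tissues were present in every group. The summed level of 9 arch mesenchyme genes was 286.5 to 387 CPM in mutants and 303 to 543.5 CPM in wild-types. The 7 tested erythroid genes of 8 listed summed to 2819 to 9305 CPM in mutants and 4731 to 23400 CPM in wild-types, with Hba-a1 at 0 in every library. The highest erythroid sum, 23400 CPM, was that of wild-type 1, against 4731, 6762 and 7519 CPM in wild-types 2, 3 and 4. The 7 macrophage genes summed to 25.9 to 48.1 CPM in mutants and 20.1 to 27.3 CPM in wild-types. The 6 endothelial genes summed to 384 to 515 CPM in mutants and 370 to 521 CPM in wild-types. In these 6 marker lists 0 genes passed the test, but within most of them the fold changes had one sign. All 9 arch mesenchyme genes (median -0.44 on the log2 scale) and all 7 tested erythroid genes (-0.775) were on the lower side in mutants. All 9 cardiomyocyte genes (0.187), all 7 tested neural genes (0.735) and all 7 macrophage genes (0.468) were on the higher side, and 4 of 6 endothelial genes were on the lower side (-0.02). The part of these in the members' fold changes was not tested. An unadjusted p under 0.05 (edgeR quasi-likelihood test) was reached by 2 of 9 arch mesenchyme genes, Msx1 and Prrx1. It was also reached by 2 of 7 macrophage genes, Mrc1 and Aif1, against 1.3% of all genes tested. No gene of the cardiomyocyte, erythroid, neural or endothelial lists reached it. Among the genes with the smallest p of their lists were Msx1 (log2 fold change -0.99), Prrx1 (-0.45), Ttn (0.65), Myh7 (0.70), Hbb-bh1 (-0.90), Neurod1 (0.89), Elavl4 (0.82), Mrc1 (0.75), Aif1 (1.03), Cldn5 (-0.33) and Emcn (0.06), and in the proliferation list Pcna (-0.09) and Ccna2 (-0.09).

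**Figure D4:**
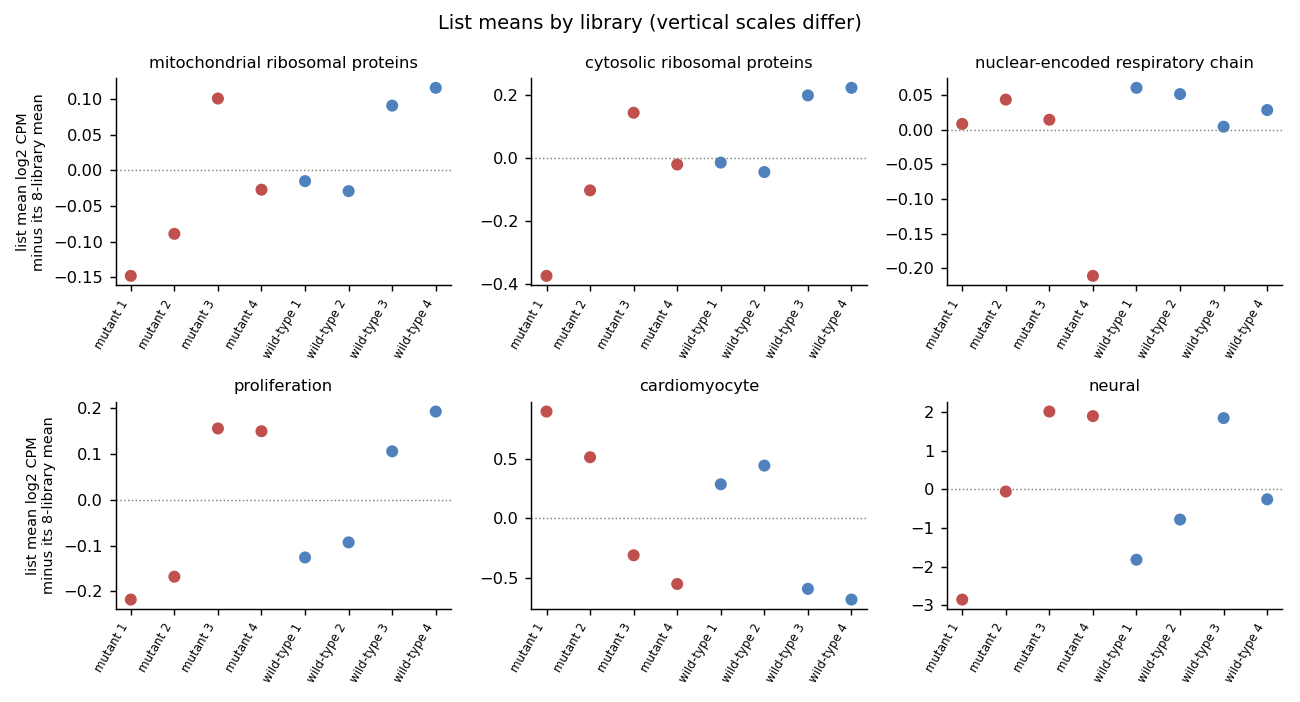
Mean log2 CPM of 6 gene lists in each library, as the deviation from the list's mean over the 8 libraries (vertical scales differ between panels); mutants are red and wild-types blue. Mutant 1 is lowest for the mitochondrial and cytosolic ribosomal protein genes and highest for the cardiomyocyte genes, and mutant 4 is lowest for the respiratory chain.

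The 2 gene families nearest in function had the same sign in most of their genes. Of 80 tested cytosolic ribosomal protein genes 79 were lower in mutants (median -0.18 on the log2 scale). Of 78 tested nuclear genes of the respiratory chain 61 were lower (median -0.09). In both 0 genes passed the test. The cytosolic list mean was 8.73, 9.0, 9.25 and 9.08 log2 CPM in mutants 1 to 4, against 9.09, 9.06, 9.30 and 9.33 in wild-types 1 to 4, so mutant 1 was lowest there as well. The respiratory chain list was instead lowest in mutant 4, at 6.20, against 6.41 to 6.47 in the other 7 libraries. The differences between the families were not tested.

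The large subunit held the members with the largest differences, none of which passed. Of its 49 genes 46 were lower in mutants (median -0.09 on the log2 scale). Mrpl9, a protein with a bacterial counterpart (ENSMUSG00000028140.13 in GENCODE M21 on GRCm38, chromosome 3, 94443318 to 94451130, plus strand), had the smallest p. It was at 41.4, 36.5, 39.8 and 42.1 CPM in mutants 1 to 4, against 47.1, 43.0, 44.3 and 50.8 CPM in wild-types 1 to 4. Every mutant lay below every wild-type, as in 83 of all genes tested (0.559%). The log2 fold change was -0.21 (SE 0.10, edgeR unadjusted p = 0.0515). Mrpl41, a protein without a bacterial counterpart (ENSMUSG00000036850.4, chromosome 2, 24974117 to 24975098, minus strand), was at 25.4, 28.4, 34.6 and 31.0 CPM in mutants 1 to 4, against 33.4, 32.5, 42.2 and 36.7 CPM in wild-types 1 to 4. The groups overlapped through mutant 3, although the mutant was lower in 4 of 4 pairs. Its log2 fold change, -0.28 (SE 0.13, edgeR unadjusted p = 0.0594), was the lowest of the 76. Mrpl20 followed at -0.23 (SE 0.19, edgeR unadjusted p = 0.247), with overlapping groups and the mutant lower in 4 of 4 pairs.

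Further members of the large subunit overlapped between groups. Mrpl52, another protein without a bacterial counterpart, was at 29.0 ± 1.82 CPM in mutants and 32.8 ± 2.0 CPM in wild-types (SD, n = 4 each), and differed by -0.18 on the log2 scale. Mrpl39 was at 52.2 ± 3.13 CPM in mutants and 58.4 ± 4.34 CPM in wild-types (-0.16), lower in 4 of 4 pairs. Mrpl30 was at -0.20, Mrpl32, which is matured by a protease of the inner mitochondrial membrane, at -0.18, and Mrpl18 at -0.13 on the log2 scale. Mrpl54, at 45.0 ± 5.83 CPM in mutants and 50.04 ± 3.96 CPM in wild-types, was at -0.15 and lower in 4 of 4 pairs. Mrpl28 (-0.09), Mrpl34 (-0.14), Mrpl33 (-0.08) and Mrpl48 (-0.06), taken for their levels, overlapped as well.

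The small subunit showed the same sign in fewer of its genes, with 20 of 26 lower and a median of -0.05 on the log2 scale. The difference from the large subunit was not tested. Mrps24, which has a bacterial counterpart (ENSMUSG00000020477.10, chromosome 11, 5703983 to 5715680, minus strand), was the other member whose groups did not overlap. It was at 21.6, 23.0, 23.2 and 19.6 CPM in mutants 1 to 4, against 24.3, 23.8, 24.6 and 23.5 CPM in wild-types 1 to 4. The gap was narrow, and the log2 fold change was -0.14 (SE 0.10, edgeR unadjusted p = 0.198). It shares 226 exon bases on the same strand with Urgcp. In all, 2 of 76 members were without overlap and lower, against 0.559% of all genes, and 0 were without overlap and higher, against 0.484%. Mrps11, whose product sits on the small-subunit platform, was at 24.2 ± 2.97 CPM in mutants and 27.8 ± 1.18 CPM in wild-types (SD, n = 4 each; log2 fold change -0.20), with mutant 3 inside the wild-type range. Mrps21 was at 42.5 ± 2.07 CPM in mutants and 46.6 ± 3.33 CPM in wild-types (-0.13). Mrps10 (0.00), Mrps35 (-0.05) and Mrps26 (0.02), among the lowest per length, had differences near 0.

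**Figure D5:**
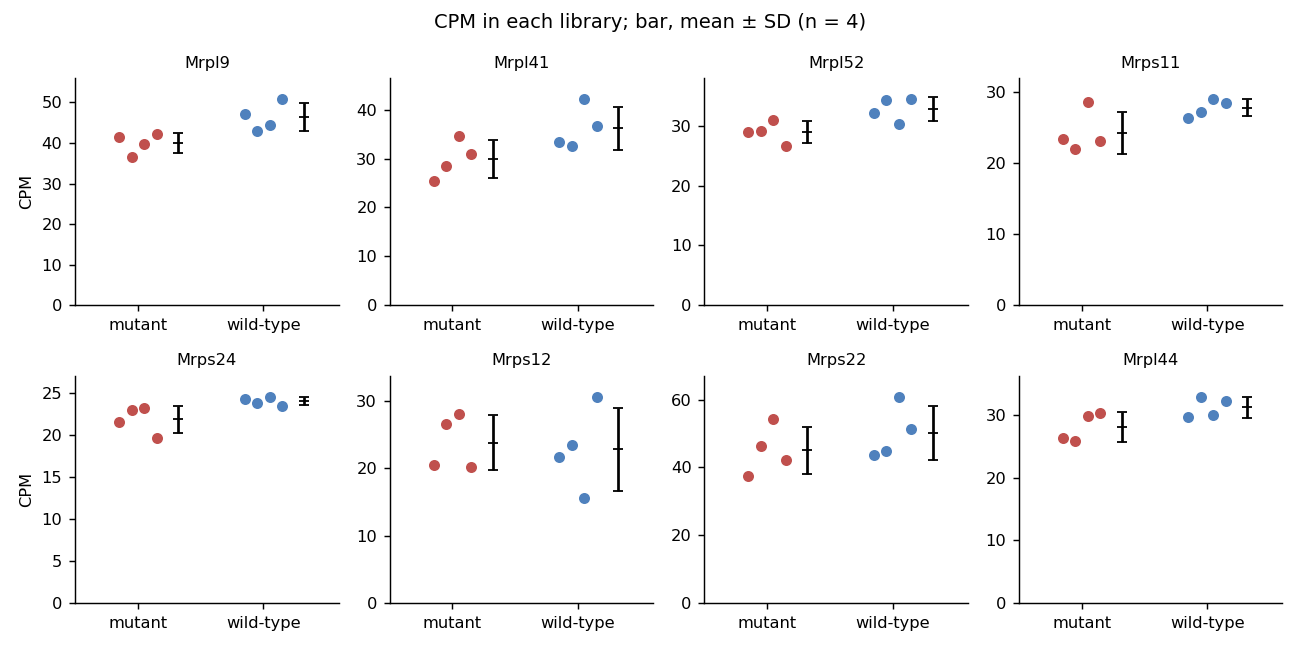
CPM of 8 of the genes in each library, with 4 mutants left (red) and 4 wild-types right (blue) and the mean ± SD beside each group (n = 4). Groups are separate for Mrpl9 and Mrps24 and overlap for the other 6.

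Members linked to heart disease in human patients did not pass either. Mrpl44, a large-subunit protein related to RNA-cleaving enzymes (chromosome 1), was at 26.3, 25.8, 29.8 and 30.3 CPM in mutants 1 to 4, against 29.6, 32.9, 30.03 and 32.2 CPM in wild-types 1 to 4. It was lower in 4 of 4 pairs, and mutants 3 and 4 lay inside the wild-type range. The log2 fold change was -0.15 with a 95% interval from -0.38 to 0.07. Mrps22, a small-subunit protein without a bacterial counterpart, was at 45.0 ± 7.08 CPM in mutants and 50.2 ± 7.87 CPM in wild-types (-0.16, interval -0.49 to 0.18). Mrps14 was at 32.5 ± 3.44 CPM in mutants and 34.1 ± 4.84 CPM in wild-types (-0.07, interval -0.36 to 0.22). Mrpl3 was at 56.4 ± 2.03 CPM in mutants and 58.0 ± 2.83 CPM in wild-types (SD, n = 4 each; -0.04, interval -0.23 to 0.15). Mrpl3 was also the member that varied least within groups, with an SD of 0.0624 on the log2 scale.

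Other members with a distinct role showed small differences. Mrps18a, Mrps18b and Mrps18c encode related proteins that occupy different places, Mrps18a in the large subunit and the other two in the small subunit. Their log2 fold changes were -0.15, -0.05 and -0.14. Mrps30, which is a protein of the large subunit in spite of its name, was at -0.09. Mrps36, which is now regarded as a part of the 2-oxoglutarate dehydrogenase complex and not of the ribosome, was at 19.5 ± 1.35 CPM in mutants and 18.7 ± 2.74 CPM in wild-types. Its log2 fold change of 0.06 was the highest of the 76.

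Variation within groups separated the members further. Mrps12, a protein of the decoding centre, varied most, with an SD of 0.331 on the log2 scale. It was at 20.5, 26.6, 28 and 20.2 CPM in mutants 1 to 4, against 21.7, 23.4, 15.6 and 30.6 CPM in wild-types 1 to 4, so the extremes were both wild-type. Mrpl12, which forms the stalk that recruits translation factors, followed at 0.315. It was at 46.5, 61.1, 83.5 and 69.5 CPM in mutants 1 to 4, against 63.4, 59.2, 55.4 and 84.7 CPM in wild-types 1 to 4. Mrpl20, an RNA-binding protein of the large subunit, was at 51.2 ± 10.9 CPM in mutants and 60.2 ± 12.5 CPM in wild-types (SD, n = 4 each; within-group SD 0.306 on the log2 scale). The least variable after Mrpl3 were Mrpl10, which anchors the stalk (0.0711), and Mrpl45, which ties the ribosome to the inner membrane (0.0792). The median SD was 0.165 for the members and 0.254 for all genes tested. It was 0.154 for the nuclear genes of the respiratory chain and 0.227 for the cytosolic ribosomal protein genes. A spread under that of all genes was therefore not particular to the members. These sets of genes were not matched for level, and the part of level in their SDs was not tested.

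Of the 5 members on chromosome 3, 3 lie within 10 megabases of Pygo2, which starts at 89430214. Mrpl24, at 1.51 megabases, was at -0.05 on the log2 scale, Mrpl9, at 5.01 megabases, at -0.21, and Mrps21, at 6.43 megabases, at -0.13. Among the 238 tested genes of that interval other than Pygo2, these 3 included, 120 (50.4%) were lower and the median was -0.01 on the log2 scale. An unadjusted p under 0.05 (edgeR quasi-likelihood test) was reached by 8 of the 238, against 1.30% of all genes tested. Groups did not overlap in 4 lower genes, Mrpl9 among them, and in 1 higher gene. Over all genes tested these shares were 0.559% and 0.484%. The part of position in the fold change of Mrpl9 was not tested.

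Genes that act with the mitochondrial ribosome did not pass the test in either direction. Of 7 subunits that do not carry an Mrp name in the rule, 4 were lower and 3 higher (median log2 fold change -0.09), with Chchd1 at -0.275 (SE 0.20) and Gadd45gip1 at -0.272 (SE 0.21). Of 15 translation factors and mRNA-stabilising proteins of the mitochondrion 10 were lower (median -0.02). Slirp, which stabilises mitochondrial messages together with Lrpprc, was at -0.35 (SE 0.20), and the elongation factor Gfm1 at 0.14 (SE 0.08). Of 19 tested assembly and RNA modification genes of 20 listed 13 were lower (median -0.03), with Malsu1, which binds the immature large subunit, at -0.25 and Rbfa, a maturation factor of the small subunit, at -0.22. Of 17 genes of mitochondrial transcription and biogenesis 10 were higher (median 0.01), with the coactivator Pprc1 at 0.20 and Tfam, which packages mitochondrial DNA, at -0.13. In these lists 0 genes passed.

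The 20 mitochondrial aminoacyl-tRNA synthetases were split 10 to 10 (median -4.71e-05), and 0 passed. Yars2 was at -0.15. Lars2, the leucyl-tRNA synthetase, was at 321, 37.8, 35.5 and 32.3 CPM in mutants 1 to 4, against 39.5, 30.02, 41.0 and 5513 CPM in wild-types 1 to 4. The 2 libraries with high Lars2 counts, wild-type 4 and mutant 1, were also those with the largest share of Rn45s, at 4.83% and 1.29%. Its log2 fold change of -3.72 (SE 1.81, edgeR unadjusted p = 0.0689) rests on wild-type 4, and the part of ribosomal RNA in it was not tested.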

How the data were processed

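RNA was measured in 8 single-embryo libraries. Per the labels' protocols, dissected tissue was frozen, extracted with TRIzol and made into stranded total RNA libraries after RiboZero depletion of ribosomal RNA. TopHat2 2.0.11, HTSeq 0.6.1 and edgeR 3.14 with the mm10 build are named, per the submitters' processing notes. Neither the annotation nor the strand setting of the counting is stated there. The authors deposited raw counts per gene symbol, which were used here. From the authors' deposited table of their own comparison, log2 fold changes, p-values and false discovery rates were only quoted. A table of scaled values was not used here.

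Genes were kept by filterByExpr and scaled by TMM in edgeR 4.0.16 (R 4.3.3), and mutants were compared with wild-types by the quasi-likelihood test with genotype as the only term, checked on simulated data. P-values were adjusted by Benjamini-Hochberg over 14861 genes, with 0.05 as the limit. CPM uses TMM-scaled totals, and log2 CPM a prior count of 2. Alternatives used DESeq2 1.42.0, limma 3.58.1, other scalings and filters, and each library left out in turn. Each embryo is a separate animal. Same-numbered libraries deviated from their group means together (correlations across genes of 0.556, 0.185, 0.676 and 0.186 for pairs 1 to 4), so the numbers were also used as a block. Libraries of different numbers were not compared in this way, so the values do not show that the number marks a pair.

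Positions and exon lengths come from GENCODE M21 (GRCm38, mm10), where all 76 members matched by symbol, and promoter sequences from RefSeq (GRCm38.p6). Members, lists and tests were chosen with earlier results of these data known; the cytosolic and respiratory chain lists were added later by name patterns. Members are named by a rule: the 12 smallest p, the 5 highest and 5 lowest levels per length, groups without overlap, 11 with a distinct role, and the 3 most and 3 least variable; other lists give the 2 genes with the smallest p, of which 1 is not reported here.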

Additional observations from a re-analysis of the deposited data

Results flagged for a closer look

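A library far from the other 3 of its group was looked for in 68 groups of 4, the mutant and wild-type values of the 32 named members, of Pygo2 and of the mean of all members, and 4 were found; chance gives about 1 in 20. Mrpl32 was at 33.3 CPM in mutant 3, against 27.9 to 28.5 CPM in the other mutants. Mrpl28 was at 54.8 CPM in mutant 2, against 66.2 to 66.6 CPM in the other mutants. Mrpl3 was at 53.3 CPM in mutant 4, against 57.3 to 57.6 CPM in the other mutants. Mrpl18 was at 83.9 CPM in wild-type 2, against 72.5 to 74.4 CPM in the other wild-types.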

How the results depend on the processing

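Over 16 other settings 0 members passed in any, with the replicate block as well, and the median log2 fold change of the members stayed below 0. With RLE, upper-quartile factors, either other filter, DESeq2, the likelihood ratio test or limma-voom it ran from -0.0801 to -0.0758, with 65 to 67 members lower, and with the replicate block it was -0.0794. With 1 library left out it ran from -0.134 to -0.0292. The difference of the mean log2 CPM was -0.0813, -0.0433 with raw library totals, and -0.129 to -0.0390 with 1 library left out. Unadjusted p under 0.05 was reached by 1 member in DESeq2, 3 with the block, 2 without mutant 3 and 2 without wild-type 2. The block changed no call. Over all genes 193 reached it, 745 with the block and 139 to 375 with 1 library left out. Of 512 values of named members 483 kept their sign and 29 changed it. Mrps10 was at -0.000296 with RLE, -0.00879 with limma-voom and -0.0126 with the replicate block. The others that changed sign did so with 1 library left out, where the range was -0.121 to 0.0873 for Mrps10, -0.15 to 0.0417 for Mrpl48, -0.111 to 0.115 for Mrps26, -0.155 to 0.135 for Mrpl12, -0.144 to 0.0357 for Mrps18b, -0.0384 to 0.029 for Mrpl10, -0.0545 to 0.0238 for Mrpl45, -0.0848 to 0.233 for Mrps12, -0.13 to 0.0164 for Mrpl33, -0.124 to 0.0206 for Mrps14 and -0.0304 to 0.115 for Mrps36. The call of Pygo2 was lost in 5 of the 8 fits with 1 library left out, where its log2 fold change ran from -1.46 to -1.35 and the number of genes called from 0 to 1. Each of those fits has fewer libraries. Intervals with 4 libraries a group reached a median of 0.275 to either side on the log2 scale, so differences of the size seen in the members were not detectable gene by gene.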
